A study of Mus musculus with 14 samples.

Results

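The comparison described here is the response of the luminal cells of the mouse mammary gland to pregnancy, read across all genes of the array. It rests on 7 of the 14 arrays of the series, chosen by their labels alone, which are 4 arrays of luminal cells from mice at day 12.5 of pregnancy and 3 arrays of luminal cells from virgin mice. Both groups came from female FVB/NJ mice, an inbred strain, and no transgene, deletion or drug was named for either. Glands were digested to single cells, cells bearing CD45, CD31 or TER119 (blood, endothelial and red cell antigens) were gated out, and the rest were sorted on CD24 and CD29. The luminal gate took CD24-positive cells with low CD29, and the MaSC-enriched gate, named for the mammary stem cells it holds, took those with high CD29. Each array held RNA of 1 pool of mice, from 4 pregnant and 3 virgin pools, hybridised to a single-colour Illumina BeadChip with 45281 probes. How many mice made a pool and how old they were is not given in the sources used here. The other 7 arrays, 4 pregnant and 3 virgin MaSC-enriched, entered the fit only to share its estimate of the spread and to test where the luminal response differed.

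Luminal cells line the ducts and the milk-producing alveoli. One class of them carries the oestrogen and progesterone receptors and passes hormone signals on to its neighbours through secreted factors such as RANK ligand. Another holds progenitors that divide and form the alveoli in pregnancy, driven by prolactin through the transcription factors STAT5 and ELF5. Mid-pregnancy lies between the wave of proliferation that builds the alveoli and the onset of copious secretion after birth. Because each array averaged a whole sorted population, fewer cells of a type and less RNA per cell cannot be told apart in any result below.

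The labels were checked against markers. All 17 luminal markers tested, among them keratins 8 and 18, E-cadherin and claudins, were detected on every luminal array. Their summed intensity was 125800 to 144400 on pregnant luminal arrays and 146000 to 151200 on virgin luminal arrays, against 31350 to 51900 on the MaSC-enriched arrays. Of 17 basal markers tested, the keratin gene Krt5 and 3 others were detected on no luminal array, but 8 rose and none fell in pregnancy (median log2 difference 0.99). The basal sum was 32730, 34880, 43090 and 34890 on the pregnant luminal arrays, against 27100, 10070 and 14540 on the virgin ones and at least 128500 on every MaSC-enriched array. Virgin luminal replicate 1 therefore lay nearest the pregnant arrays for this list, and within chip 1, which held it, the basal median was 0.10. The 8 fibroblast markers summed to 3196, 3784, 13850 and 7029 on the pregnant arrays and 21250, 32330 and 12450 on the virgin arrays, mostly through Dcn. Gene by gene, 5 of the 8 were higher and 3 lower in pregnant cells (median log2 difference 0.15). Past the threshold 1 rose, and Dcn was the 1 that fell. Haemoglobin and other erythroid markers were high on pregnant replicate 3 (16750) and virgin replicate 2 (13000), both on chip 3, and at most 4569 on the other 5 luminal arrays. The 5 macrophage and myeloid markers tested were all higher in pregnant luminal cells (median log2 difference 0.59), with none past the threshold. Their sums were low, at 399.2 to 826.1 on pregnant and 253.4 to 387.3 on virgin luminal arrays. The part of these other cell types in the results below was not tested.

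Levels below are log2 normalised intensities, on which the lowest detected value of an array lay between 5.46 and 6.05 and the highest value of any array was 14.95. A gene was said to have risen or fallen when limma, a linear model fitted to all 14 arrays, gave an adjusted p below 0.05 (Benjamini-Hochberg over all 20906 probes tested). With that rule 1237 of 11350 genes rose in pregnant luminal cells, which is 10.9%, and 1232 fell, also 10.9%, from 4087 probes, or 19.5% of those tested. The falls were the larger: 62 genes fell at least 16-fold and 335 at least 4-fold, against 8 and 150 genes that rose that far. The median log2 difference was 1.15 over the genes that rose, -1.40 over those that fell and 0.05 over all genes. Pregnant and virgin luminal arrays did not overlap for 2348 of the 2469 changed genes and for 33.8% of all genes tested. The arrays lay on chips 1, 3 and 4, each with both states, and 2435 of the 2469 genes kept their direction within all 3 chips. A gene whose arrays do not overlap keeps its direction within every chip. That count was therefore largely fixed by the calls and is not a test of the chips. With arrays scaled to a common median in place of quantile normalisation the median of all genes was -0.16, and 517 genes rose and 1366 fell. The share of rises among changed genes was then 27.5%, against 50.1%, and 42.3% with cyclic loess. Pregnant arrays detected 37.3% ± 1.67 of all probes (SD, n = 4) and virgin arrays 39.6% ± 0.718 (SD, n = 3), a difference of -2.28 percentage points (two-sided exact permutation p = 0.0571, the smallest that 4 against 3 arrays allow).

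Of the rises, the gap junction gene Gjb6, which codes for connexin 30, had the largest fitted value. Its log2 levels were 13.66, 13.57, 13.65 and 13.25 in pregnant luminal cells, against 9.66, 6.5 and 5.89 in virgin luminal cells (log2 difference 6.18, SE 0.73, adjusted p = 2.55e-05). Virgin replicate 1 was the highest of its group, and without it the difference was 7.34, while without virgin replicate 3 it was 5.45. Gjb2, the gene of its partner connexin 26, rose as well, with log2 levels of 14.05, 14.08, 14.38 and 13.77 on the pregnant arrays and 11.34, 10.24 and 10.71 on the virgin arrays. The potassium leak channel Kcnk6 was at 11.67, 11.86, 11.82 and 12.13 in pregnant luminal cells, against 7.81, 7.15 and 7.39 in virgin luminal cells, and rose 21.4-fold with no overlap (adjusted p = 2.74e-07). Further large rises were those of the transport ATPases Atp13a4 (13.6-fold) and Atp12a, a proton-potassium pump (13.3-fold), and of Rgs16, a brake on G-protein signalling (14.2-fold). Bcl2l15, a gene of the Bcl-2 family, rose 11.6-fold, the heparan sulphate modifying enzyme Hs3st3b1 10.5-fold, and Tnfrsf19, a receptor of the tumour necrosis factor family, 10.98-fold. Sec16b, which marks the sites where cargo leaves the endoplasmic reticulum, rose 12.7-fold and was at 9.97, 9.76, 9.68 and 9.56 on the pregnant arrays and 6.87, 6.23 and 5.13 on the virgin arrays (log2).

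Several of the largest falls ended below detection. Ido1, which breaks down tryptophan, was at 4.95, 4.70, 4.60 and 4.90 in pregnant luminal cells, against 13.49, 13.45 and 12.12 in virgin luminal cells (log2 levels), was detected on no pregnant array and was at least 147-fold lower (adjusted p = 4.11e-09). Ang4, a secreted ribonuclease, was at least 60.8-fold lower, or by log2 -5.93 without virgin replicate 2 and -7.17 without replicate 3 in place of a fitted -6.58. Dmbt1, a secreted scavenger-type glycoprotein, was at 4.82, 4.63, 4.75 and 4.70 on the pregnant arrays and 12.67, 10.88 and 8.92 on the virgin arrays (log2 levels) and at least 32.1-fold lower. Its fitted difference of -6.10 was -5.15 without virgin replicate 1 and -7.05 without replicate 3. Clic6, of the intracellular chloride channel family, fell 66.6-fold with log2 levels of 7.10, 6.45, 6.65 and 7.03 in pregnant luminal cells, against 13.46, 13.06 and 12.07 in virgin luminal cells. The cytochrome Cyp3a57, which oxidises steroids and foreign compounds, fell 68.1-fold, the secreted hormone Stc2 58.4-fold, Crym, which binds thyroid hormone, 59.5-fold, and Gipc2, a scaffold protein, 55.3-fold. Kif5c, a kinesin motor, was at least 48.3-fold lower, and the mechanically gated channel Piezo2 fell 42.4-fold, to log2 levels of 5.49, 6.09, 5.85 and 5.26 in pregnant luminal cells, against 11.63, 10.89 and 10.71 in virgin luminal cells. The falls of Gipc2 and Piezo2 were smaller with all probes of the gene averaged (log2 -3.81 and -3.96 in place of -5.79 and -5.40). With a larger background offset the fitted differences of genes near background shrank, that of Ido1 to -7.08 in place of -8.23. The pregnant levels of Piezo2 lay near the lowest detected values, so its fold too depends on the background level.

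**Figure D1:**
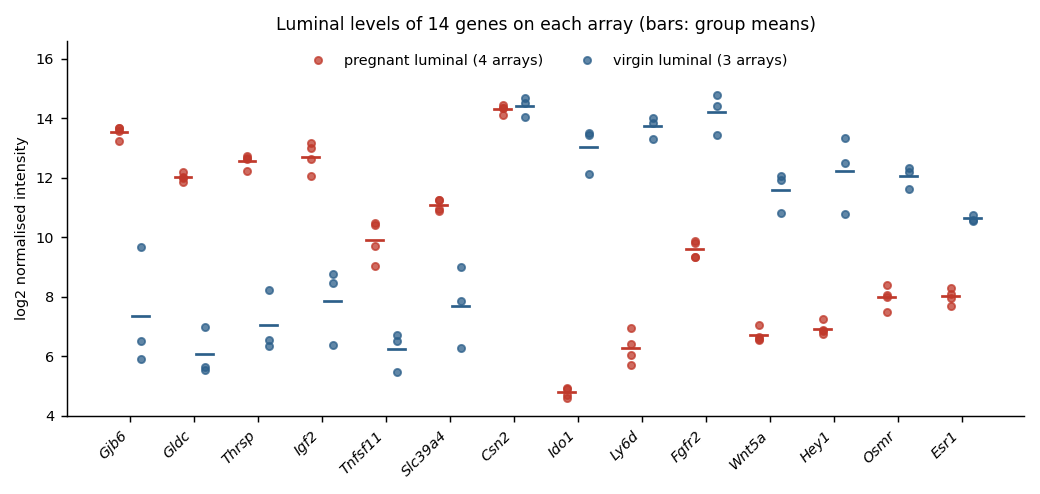
Log2 normalised intensity of 14 genes (horizontal axis) on each luminal array, with the 4 pregnant arrays in red to the left of the 3 virgin arrays in blue and bars at the group means. In every gene but Csn2 the 2 states do not overlap, and Gjb6, Slc39a4 and Hey1 show the widest spread among virgin arrays.

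Milk protein and secretion genes were the list with the largest share of members that rose after mitosis genes. Of 22 tested, 12 rose and none fell (54.5%, beside 10.9% of all genes), with a median log2 difference of 1.05, and medians of 0.53, 1.10 and 1.01 within chips 1, 3 and 4. The rise was not particular to luminal cells, as in MaSC-enriched cells 14 of the 22 rose and none fell (median 1.97). In luminal cells the rise was uneven among the genes. For 3 caseins no difference passed the test: Csn2 was at 14.34, 14.35, 14.11 and 14.45 in pregnant luminal cells, against 14.05, 14.49 and 14.68 in virgin luminal cells (log2 levels, difference -0.0990, adjusted p = 0.881), Csn1s1 differed by 0.11 and Csn3 by 0.0998. These levels lay near the top of the scale, 14.95, in both states. The alpha-S2 casein genes Csn1s2a and Csn1s2b rose 10.2-fold and 7.82-fold. Csn1s2a had log2 levels of 11.33, 11.25, 11.36 and 11.06 on the pregnant arrays and 7.85, 9.10 and 6.74 on the virgin arrays, and its difference of 3.36 was 3.97 without virgin replicate 2, and its call was lost without virgin replicate 1 (3.33, adjusted p = 0.057) or 3 (2.78, adjusted p = 0.0824). Wap, the whey acidic protein gene, was at 14.59, 14.86, 14.59 and 14.56 in pregnant luminal cells, against 12.56, 9.76 and 10.45 in virgin luminal cells, and its log2 difference of 3.73 was 4.59 without virgin replicate 1. Glycam1, a mucin-like whey protein, showed most plainly how replicate 1 stood apart, at 14.34, 14.32, 13.83 and 14.63 in pregnant luminal cells, against 14.46, 8.79 and 8.50 in virgin luminal cells. Its difference of 3.70 (adjusted p = 0.0155) was 5.68 without that array, -0.13 within chip 1, and lost its call without virgin replicate 2 or 3 (adjusted p = 0.0919 and 0.086) and with array weights (0.72, adjusted p = 0.496). Lalba, the lactose synthase cofactor, differed by 0.04 (adjusted p = 0.973), or -0.56 without virgin replicate 3. Xdh, which coats the milk fat globule with butyrophilin, rose 3.15-fold, Plin2, which coats lipid droplets, 4.16-fold, and Cel, the bile-salt lipase of milk, by a log2 of 1.46. Fabp3, a fatty acid carrier of milk fat, rose 39.97-fold, with log2 levels of 14.65, 14.69, 14.53 and 14.81 in pregnant luminal cells, against 10.98, 7.51 and 9.56 in virgin luminal cells. Its difference of 5.32 was 6.18 without virgin replicate 1 and 4.45 without replicate 2.

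The promoters of 2 of these genes are shown because they hold the palindrome TTCNNNGAA to which STAT5 binds, with the match in capitals. They run from 250 bases before to 50 bases after the start that RefSeq gives on build GRCm38.p6, 5′ to 3′ on the gene's strand. Pigr, which carries antibodies into milk (21.3-fold higher), lies at chr1:130826434-130826733 on the plus strand with its match 39 bases after the start. Csn1s2a lies at chr5:87774200-87774499 on the plus strand with its match 20 bases after the start.
Pigr: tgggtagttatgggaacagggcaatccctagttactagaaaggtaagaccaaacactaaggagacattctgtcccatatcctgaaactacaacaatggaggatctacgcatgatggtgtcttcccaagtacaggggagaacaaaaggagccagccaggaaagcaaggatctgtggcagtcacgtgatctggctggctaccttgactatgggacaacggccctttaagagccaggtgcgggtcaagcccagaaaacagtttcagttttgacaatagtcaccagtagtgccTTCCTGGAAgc
Csn1s2a: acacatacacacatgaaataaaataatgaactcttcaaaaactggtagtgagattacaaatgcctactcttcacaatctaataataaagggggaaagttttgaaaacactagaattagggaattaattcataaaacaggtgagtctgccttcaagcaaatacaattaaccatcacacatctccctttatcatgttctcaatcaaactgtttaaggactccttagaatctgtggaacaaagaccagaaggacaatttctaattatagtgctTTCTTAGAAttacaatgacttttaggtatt
The letters TTCNNNGAA, which read the same on both strands, occurred in 5 of 16 milk list promoters at hand (31.2%) and in 8.3% of the 9129 promoters of tested genes. A match describes these letters and was not a test of binding.

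Of 20 genes of the alveolar and prolactin signalling list 2 rose and 3 fell (10% and 15%, beside 10.9% each way of all genes), and the median was 0.03. Cited4, a transcriptional cofactor, rose 8.55-fold, with log2 levels of 13.45, 13.14, 13.33 and 13.36 in pregnant luminal cells, against 10.71, 10.66 and 9.31 in virgin luminal cells (adjusted p = 1.09e-05). Elf5, the alveolar ETS factor, was at 13.77, 13.68, 13.82 and 13.02 on the pregnant arrays and 12.73, 12.92 and 11.21 on the virgin arrays (log2 levels, difference 1.29, adjusted p = 0.0541), and Stat5a at 11.01, 11.14, 11.28 and 10.37 on the pregnant arrays and 10.42, 9.59 and 9.70 on the virgin arrays (difference 1.05, adjusted p = 0.0608). Neither passed, and both calls depended on the setting. For Elf5 the adjusted p was 0.029 with chip as a block and 0.265 without virgin replicate 3, where its difference was 0.74. With all probes of a gene averaged both passed, Elf5 at 1.68 (limma, adjusted p = 0.0035) and Stat5a at 0.99 (adjusted p = 0.032). Socs3, a feedback inhibitor of cytokine receptors, fell 4.29-fold (log2 levels of 11.67, 11.67, 12.48 and 11.66 in pregnant, 14.52, 14.60 and 12.80 in virgin luminal cells). Jak2, the kinase that carries the prolactin signal, fell 2.20-fold (adjusted p = 0.0329), a call lost without virgin replicate 1 or 3 or pregnant replicate 3 or 4 (log2 -1.04, -0.995, -1.13 and -0.84). The bZIP factor Creb3l1, which drives secretory pathway genes, rose 4.68-fold with log2 levels of 8.15, 7.83, 7.68 and 8.06 in pregnant luminal cells, against 5.65, 5.70 and 5.75 in virgin luminal cells.

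Genes of fat synthesis rose together. Of 26 genes of fatty acid synthesis and desaturation 13 rose and 1 fell (50% and 3.85%), with a median log2 difference of 0.90, and 8 rose with median scaling. Thrsp, a regulator of fatty acid synthesis, rose 46.1-fold, with a difference of 5.53, or 6.12 without virgin replicate 1. Acacb, which makes malonyl-CoA, was at 9.40, 9.29, 9.46 and 9.69 in pregnant luminal cells, against 6.72, 7.33 and 6.0 in virgin luminal cells (log2 levels, 6.85-fold, adjusted p = 7.28e-05). Fasn, the fatty acid synthase, rose 3.69-fold, Acly, which makes cytosolic acetyl-CoA, 2.32-fold, and the desaturase Fads2 3.43-fold. Lpl, which frees fatty acids from blood lipoproteins, was at 13.41, 13.56, 13.80 and 13.16 on the pregnant arrays and 10.93, 10.34 and 9.70 on the virgin arrays and rose 8.94-fold (log2 difference 3.16, SE 0.48). Acly was chosen for naming after its values were seen, as were Csn1s1, Csn3, Dgat1, Tfrc, Slc11a2, Stim1, Cdc20, Cdk1, Foxm1, Cfb, Axin2, Krt23, Lamb3, Spdef, Ramp1, Cdkn1c, Sox9, Ets1, Oas2 and Pglyrp1.

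Triglyceride assembly was split at its last step. Dgat1 and Dgat2 code for unrelated enzymes that both join the last fatty acid to diacylglycerol. Dgat2 had log2 levels of 8.16, 8.15, 7.56 and 8.01 in pregnant luminal cells, against 11.72, 12.76 and 11.85 in virgin luminal cells and fell 17.7-fold (adjusted p = 2.33e-07), while Dgat1 was at 8.43, 8.23, 8.14 and 8.81 on the pregnant arrays and 6.76, 7.05 and 7.16 on the virgin arrays and rose 2.65-fold (adjusted p = 0.000618). The phosphatidate phosphatases, which supply the diacylglycerol, were split likewise, as Lpin1 rose 3.85-fold and Lpin2 fell 3.37-fold. The 3 probes of Lpin2 differed by log2 -2.145 to -0.20, and 2 of them passed. Cidea, which enlarges lipid droplets, rose 5.76-fold, with log2 levels of 9.95, 10.05, 9.70 and 10.34 on the pregnant arrays and 8.09, 6.82 and 7.53 on the virgin arrays. In all 8 of 25 genes of this list rose and 2 fell.

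Of 22 genes of sterol synthesis and uptake 9 rose and 1 fell (40.9% and 4.55%, median 0.61). The number that rose was 2 with median scaling, under which Stard4 and Mvd stayed past the threshold. Stard4, which carries cholesterol through the cytosol, had log2 levels of 9.28, 9.68, 10.23 and 9.73 in pregnant luminal cells, against 6.75, 6.71 and 6.80 in virgin luminal cells and rose 7.86-fold (adjusted p = 2.42e-07). Mvd, a decarboxylase of the mevalonate pathway, was at 9.36, 9.62, 9.57 and 9.91 on the pregnant arrays and 7.31, 6.65 and 7.78 on the virgin arrays and rose 5.17-fold (adjusted p = 0.00186). Insig1, the sensor that restrains sterol synthesis, rose 3.25-fold, Hsd17b7 2.59-fold and Dhcr7, which makes the last step to cholesterol, 2.40-fold, with a wide spread among the pregnant arrays for Insig1 (8.72, 9.61, 10.53 and 9.12, against 8.03, 7.84 and 7.52 in virgin luminal cells). Abcg1, which exports cholesterol, fell 3.58-fold and was detected on 1 of 4 pregnant arrays. The promoter of Mvd, at chr8:122443373-122443672 on the minus strand, is shown for the CCAAT box, in capitals 60 and 27 bases before the start, which sterol promoters often hold.
Mvd: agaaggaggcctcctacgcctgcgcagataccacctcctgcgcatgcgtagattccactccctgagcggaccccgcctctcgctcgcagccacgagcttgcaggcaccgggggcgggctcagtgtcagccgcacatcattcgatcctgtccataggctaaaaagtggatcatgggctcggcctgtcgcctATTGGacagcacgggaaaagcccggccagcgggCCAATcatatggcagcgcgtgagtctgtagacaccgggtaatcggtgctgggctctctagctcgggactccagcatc
CCAAT, searched on both strands, was found in 16 of 17 sterol list promoters (94.1%) and in 42.6% of the promoters of all tested genes. The sterol regulatory element TCACNCCAC was found in none of the 17 and in 1.3% of all. Finding no match says only that these letters are not in that window.

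**Figure D2:**
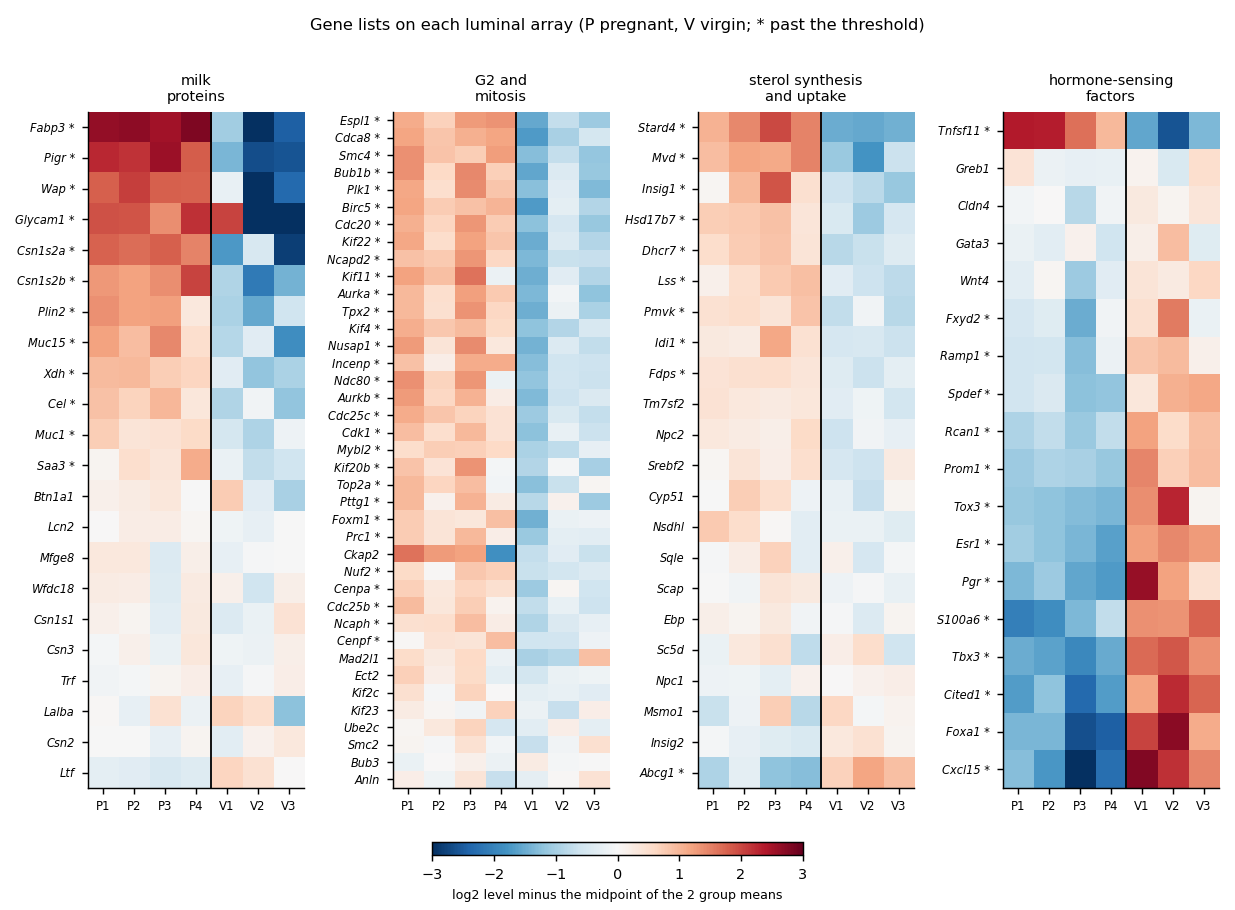
Log2 level of each tested member of 4 gene lists on each luminal array, minus the midpoint of the pregnant and virgin means, with pregnant arrays P1 to P4 left of virgin arrays V1 to V3 and asterisks on genes past the threshold. Most mitosis genes are lowest on V1, milk genes such as Glycam1 and Wap are highest among virgin arrays on V1, and 17 of 18 hormone-sensing genes have a lower pregnant mean, 13 of them past the threshold.

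Pcx, which makes oxaloacetate from pyruvate, had log2 levels of 9.13, 9.45, 9.38 and 9.49 in pregnant luminal cells, against 7.55, 6.61 and 7.27 in virgin luminal cells and rose 4.67-fold (adjusted p = 8.05e-06). The glycolytic enzyme Pfkl was at 13.02, 13.30, 13.18 and 13.29 on the pregnant arrays and 11.56, 11.43 and 11.04 on the virgin arrays and rose 3.60-fold, and the pentose phosphate genes Tkt and Taldo1 rose 1.87-fold and 1.85-fold. The neuronal enolase Eno2 fell 5.24-fold, and the glucose carrier Slc2a1 differed by -0.02 (adjusted p = 0.979). Only 3 of 26 glycolysis and pentose phosphate genes rose and 1 fell (11.5% and 3.85%, beside 10.9% each way of all genes). Of 33 genes of the citric acid cycle 7 rose and 1 fell, and of 67 respiratory chain subunits 12 rose and 1 fell (21.2% and 17.9% rose), with medians of 0.45 and 0.35. These 2 counts were among the least stable. With median scaling 1 and 4 rose, with a larger background offset 12 and 15, and 4 and 6 when virgin replicate 1 was left out. Ppargc1b, a coactivator of mitochondrial genes, rose 4.70-fold, and its difference of 2.23 was 1.64 without virgin replicate 3.

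Gldc, which splits glycine, was at 11.84, 12.20, 12.01 and 11.99 in pregnant luminal cells, against 6.99, 5.54 and 5.65 in virgin luminal cells (log2 levels) and rose 61.8-fold, and Gnmt, which methylates glycine, at 8.23, 8.27, 7.88 and 8.37 on the pregnant arrays and 5.55, 4.74 and 6.46 on the virgin arrays, rose 6.08-fold. Some virgin levels of both lay near or below the lowest detected values, so these folds depend on the background level. The Gldc log2 difference of 5.95 ran from 4.61 to 6.40 over the alternatives tried. Slc6a9, the glycine carrier of the cell membrane, rose 2.58-fold, and the serine synthesis gene Psat1 2.46-fold, a call lost without virgin replicate 1 or 2 or pregnant replicate 3 (log2 1.21, 1.09 and 1.15). In the list of glycine, serine and one-carbon genes 8 of 29 rose and 1 fell (27.6% and 3.45%), with 2 that rose under median scaling and 3 without virgin replicate 1. Both arginases fell, Arg1 21.8-fold with log2 levels of 8.48, 8.70, 7.56 and 7.74 in pregnant luminal cells, against 12.80, 13.15 and 11.75 in virgin luminal cells and Arg2 3.08-fold. Slc7a2, a carrier of arginine and lysine, fell 12.5-fold. Prodh, which breaks down proline, rose 3.17-fold, and Aldh18a1, which makes it, 2.52-fold. Glul, the glutamine synthetase, fell 8.44-fold, by log2 -3.67 without virgin replicate 3 in place of -3.08, and the alanine transaminase Gpt2 rose 4.09-fold. Cdo1, the first step of cysteine breakdown, was at 10.28, 10.55, 9.58 and 9.99 on the pregnant arrays and 13.26, 13.91 and 12.76 on the virgin arrays (log2 levels) and fell 9.26-fold. Kynu, which acts after Ido1 on the path of tryptophan breakdown, was at least 3.803-fold lower and listed virgin levels of 7.11, 10.19 and 5.94, so that its difference was -1.84 without virgin replicate 2 and -3.995 without replicate 3.

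Of 50 ion, metal and water transporters 14 rose and 6 fell (28% and 12%), with 8 rises under median scaling. The zinc carriers Slc39a4, which takes zinc up, and Slc30a2, which loads it into secretory vesicles, rose together. Slc39a4 had log2 levels of 10.95, 11.25, 10.89 and 11.25 in pregnant luminal cells, against 7.85, 6.26 and 9.0 in virgin luminal cells, and its difference of 3.38 was 2.67 without virgin replicate 2 and 4.03 without replicate 3. Slc30a2 was at 8.41, 8.61, 8.36 and 9.18 on the pregnant arrays and 6.43, 5.43 and 6.37 on the virgin arrays and rose 5.89-fold (adjusted p = 1.58e-05). For iron, the transferrin receptor Tfrc rose 5.14-fold, at 12.80, 13.05, 12.98 and 12.81 in pregnant and 10.99, 9.997 and 10.66 in virgin luminal cells, and the iron carrier Slc11a2 2.61-fold. The phosphate carrier Slc34a2 rose 3.96-fold, and the carbonic anhydrase Car2 6.75-fold, or by log2 2.12 without virgin replicate 2 and 3.41 without replicate 3 in place of 2.75. Slc5a5, the carrier that moves iodide into milk, fell 11.4-fold at this stage, with log2 levels of 9.84, 10.13, 9.92 and 10.17 on the pregnant arrays and 14.11, 13.59 and 12.86 on the virgin arrays. The water channel Aqp5 fell 17.1-fold, the sodium channel subunit Scnn1a 7.73-fold, and Stim1, a sensor of stored calcium, 3.77-fold.

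Of 33 genes of protein folding in the endoplasmic reticulum 3 rose and 4 fell (9.09% and 12.1%, near the 10.9% of all genes each way). Of 59 genes of translocation, glycosylation and vesicle transport 4 rose and 2 fell (6.78% and 3.39%). The chaperone gene Hspa5 differed by 0.12 and the unfolded protein factor Xbp1 by 0.51 (adjusted p = 0.805 and 0.188). Ern1, the sensor that activates Xbp1, fell 2.82-fold, and Sel1l, which removes misfolded proteins, 2.33-fold. Tmed3, a cargo receptor of transport vesicles, fell 5.47-fold, with log2 levels of 10.95, 10.998, 9.84 and 10.19 in pregnant luminal cells, against 14.04, 12.68 and 12.13 in virgin luminal cells.

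Mitosis genes rose together. Of 39 genes of G2 and mitosis 30 rose and none fell (76.9%, beside 10.9% of all genes), with a median log2 difference of 1.29 and medians of 2.00, 1.41 and 1.06 within chips 1, 3 and 4. Without virgin replicate 1, the lowest virgin array for most of them, 19 rose, as also with median scaling. Espl1, the protease that lets sister chromatids part, was at 7.71, 7.29, 7.87 and 7.95 in pregnant luminal cells, against 5.06, 5.89 and 5.52 in virgin luminal cells (log2 levels) and rose 4.65-fold (adjusted p = 2.99e-05). Cdca8, a subunit of the complex that corrects chromosome attachment, was at 11.07, 10.72, 10.95 and 11.05 on the pregnant arrays and 8.17, 8.89 and 9.34 on the virgin arrays and rose 4.42-fold. Plk1, a mitotic kinase, rose 3.87-fold, the checkpoint kinase Bub1b 4.18-fold, Birc5, a partner of Cdca8, 3.79-fold, and Cdc20, which activates the anaphase complex, 3.72-fold. Cdk1, the mitotic kinase, rose 2.67-fold, a call lost with median scaling and without virgin replicate 1 (log2 1.15, adjusted p = 0.0696). Foxm1, a transcription factor of mitosis genes, rose 2.29-fold (adjusted p = 0.026) and lost its call without virgin replicate 1 or pregnant replicate 1 or 4 (log2 0.78, 1.14 and 1.10).

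The promoters of Plk1, at chr7:122159185-122159484 on the plus strand, and Cdc20, at chr4:118437294-118437593 on the minus strand, are shown for the cell cycle homology region TTTGAA and the CCAAT box that mitosis promoters often hold, with both in capitals. In Plk1 TTTGAA lies 30 bases after and CCAAT 14 bases before the start, and in Cdc20 TTTGAA lies 18 bases before and CCAAT 53 and 8 bases before it.
Plk1: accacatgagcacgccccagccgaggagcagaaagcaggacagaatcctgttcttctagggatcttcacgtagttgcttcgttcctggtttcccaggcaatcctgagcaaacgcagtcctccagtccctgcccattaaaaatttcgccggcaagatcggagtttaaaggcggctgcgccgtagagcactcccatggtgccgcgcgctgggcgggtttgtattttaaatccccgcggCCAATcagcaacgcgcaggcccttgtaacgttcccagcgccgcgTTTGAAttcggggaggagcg
Cdc20: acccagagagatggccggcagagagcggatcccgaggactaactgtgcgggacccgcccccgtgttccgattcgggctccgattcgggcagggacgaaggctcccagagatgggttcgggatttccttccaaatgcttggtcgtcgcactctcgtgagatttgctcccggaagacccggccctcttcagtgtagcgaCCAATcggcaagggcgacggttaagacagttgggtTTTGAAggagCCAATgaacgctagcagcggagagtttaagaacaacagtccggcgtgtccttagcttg
TTTGAA, on either strand, occurred in 25 of the 33 mitosis list promoters at hand (75.8%) and in 14.2% of the 9129 promoters of tested genes. Among the 24 promoters of list members that rose it was 17 (70.8%), no higher than in the list as a whole.

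Of 43 genes of G1/S and DNA replication 15 rose and none fell (34.9%, median 0.76), but 4 rose with median scaling and 4 without virgin replicate 1, while 9, 8 and 8 rose without pregnant replicate 2, virgin replicate 2 and pregnant replicate 3. Gins1, a part of the replication helicase, had log2 levels of 9.15, 9.10, 9.24 and 8.71 on the pregnant arrays and 7.02, 7.16 and 7.50 on the virgin arrays and rose 3.53-fold (adjusted p = 0.000537). Fen1, a nuclease of lagging strand synthesis, was at 11.77, 11.92, 12.11 and 11.78 in pregnant and 10.57, 10.39 and 10.53 in virgin luminal cells and rose 2.64-fold. The cyclin gene Ccnd1 differed by -0.31 (adjusted p = 0.533) and Myc by -0.09 (adjusted p = 0.906), while Mycl, another gene of the Myc family, fell 6.91-fold with log2 levels of 8.10, 8.26, 8.09 and 7.50 in pregnant luminal cells, against 11.24, 10.45 and 10.63 in virgin luminal cells.

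More brakes on the cell cycle fell than rose, though most did not pass the threshold. Of 24 cell cycle inhibitors and p53 targets 10 fell, 1 rose and 13 did not pass (41.7% fell and 4.17% rose, median -0.49), with 6 falls without virgin replicate 1. Whatever their call, 15 of the 24 were lower and 9 higher in pregnant cells. Cdkn2b, the inhibitor p15, was at 4.78, 5.17, 5.54 and 4.89 in pregnant luminal cells, against 7.30, 7.45 and 7.42 in virgin luminal cells (log2 levels), was detected on no pregnant array and was at least 2.97-fold lower (adjusted p = 2.52e-06). Trp53inp1, a p53 target that slows the cycle, was at 10.01, 10.42, 9.45 and 9.0 on the pregnant arrays and 12.95, 11.89 and 12.55 on the virgin arrays and fell 6.70-fold. Gadd45a, induced by DNA damage, fell 6.15-fold and Cdkn1a, the inhibitor p21, 2.94-fold. Cdkn1c, the inhibitor p57, was the member that rose (2.16-fold, adjusted p = 0.0152), a call lost without virgin replicate 1 or 3 (log2 1.10 and 1.03).

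**Figure D3:**
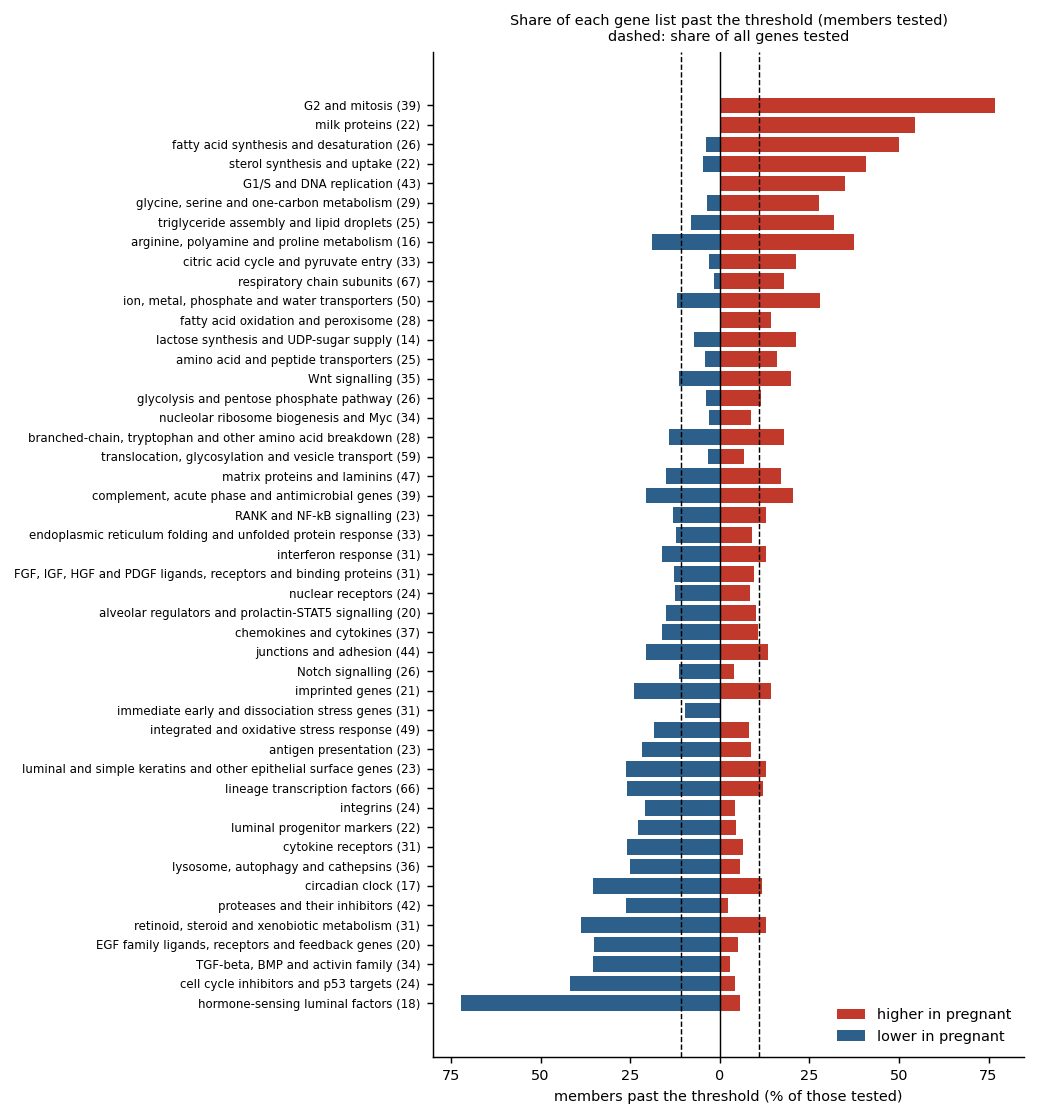
Share of the tested members of each gene list that rose (red, to the right) or fell (blue, to the left) in pregnant luminal cells, in percent, with the number tested in brackets. Dashed lines mark the share of all genes, 10.9% each way, which mitosis genes (76.9% rose) and hormone-sensing factors (72.2% fell) exceed most.

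The hormone-sensing programme fell. Of 18 factors and markers of hormone-sensing luminal cells 13 fell and 1 rose (72.2% and 5.56%), with a median log2 difference of -1.92 and medians of -2.20, -2.50 and -1.86 within chips 1, 3 and 4. Esr1, the oestrogen receptor, was at 8.28, 8.10, 7.95 and 7.70 in pregnant luminal cells, against 10.55, 10.75 and 10.59 in virgin luminal cells (log2 levels) and fell 6.16-fold, or -1.49 on the log2 scale in place of -2.62 when its probes were averaged. The transcription factors Foxa1 and Tbx3 fell 14.97-fold and 9.73-fold, and the ETS factor Spdef fell 3.30-fold. S100a6, a calcium-binding protein, was at 8.79, 8.96, 9.48 and 10.09 on the pregnant arrays and 12.20, 12.19 and 12.61 on the virgin arrays and fell 8.02-fold, and Prom1, the surface marker of these cells, was at least 2.04-fold lower and detected on no pregnant array. The chemokine Cxcl15 fell 19.8-fold, and Ramp1, which pairs with the calcitonin-type receptor, 2.44-fold. The progesterone receptor Pgr was at least 4.81-fold lower, with a fitted log2 difference of -2.85 that was -2.23 without virgin replicate 1. Against that direction Tnfsf11, RANK ligand, rose 12.8-fold with log2 levels of 10.46, 10.42, 9.71 and 9.05 in pregnant luminal cells, against 6.5, 5.48 and 6.72 in virgin luminal cells, and its receptor gene Tnfrsf11a rose 3.98-fold. Greb1, Cldn4, Gata3 and Wnt4 were the 4 members that did not pass, with Gata3 at -0.50 and Wnt4 at -0.84 (adjusted p = 0.28 and 0.0547).

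Krt8 was at 14.68, 14.76, 14.82 and 14.67 on the pregnant arrays and 14.17, 14.27 and 14.40 on the virgin arrays (log2 levels, difference 0.45, adjusted p = 0.133) and Krt18 differed by -0.46 (adjusted p = 0.372), while Krt7, another simple keratin, was at 9.16, 9.5, 8.80 and 9.58 in pregnant luminal cells, against 13.01, 12.82 and 12.49 in virgin luminal cells and fell 11.4-fold (adjusted p = 3.76e-06). Krt6b and Krt79 were detected on every virgin and no pregnant array, at least 7.62-fold and 2.13-fold lower, with Krt6b by log2 -4.99 without virgin replicate 2 and -2.97 without replicate 3 in place of -4.05. Krt23 rose 2.19-fold, a call lost with median scaling, and the basal keratin Krt14 rose 5.09-fold, or by log2 1.53 without virgin replicate 2 in place of 2.35. Of 22 luminal progenitor markers 5 fell and 1 rose (22.7% and 4.55%). The stem cell factor receptor Kit differed by 0.19 (adjusted p = 0.799), whereas Aldh1a3, which makes retinoic acid and marks progenitors, fell 3.94-fold. Tspan8, a tetraspanin, was at 6.63, 6.97, 7.17 and 6.37 on the pregnant arrays and 11.52, 11.86 and 10.59 on the virgin arrays and fell 23.2-fold. Osmr, the oncostatin M receptor, was at 7.48, 8.40, 8.06 and 7.99 in pregnant luminal cells, against 12.19, 11.62 and 12.34 in virgin luminal cells and fell 16.8-fold (adjusted p = 3.03e-07), or by log2 -2.70 in place of -4.07 with its probes averaged.

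Among 66 lineage transcription factors 17 fell and 8 rose (25.8% and 12.1%), with 1 rise under median scaling and 3 to 6 when any one luminal array was left out. Foxi1, a forkhead factor, was at 5.0, 5.28, 4.97 and 4.74 in pregnant luminal cells, against 8.37, 8.38 and 8.83 in virgin luminal cells (log2 levels), detected on every virgin and no pregnant array, and at least 6.54-fold lower. Runx1, which is needed for the oestrogen receptor-positive luminal lineage, fell 5.40-fold, with levels of 8.83, 8.63, 8.44 and 8.18 on the pregnant arrays and 11.08, 10.52 and 11.26 on the virgin arrays. Elf3, an epithelial ETS factor, fell 3.43-fold, Sox9 2.36-fold and Ets1 5.09-fold, the last by log2 -1.76 without virgin replicate 3 in place of -2.35. Vdr, the vitamin D receptor, rose 2.51-fold, a call lost without virgin replicate 2 (log2 0.94, adjusted p = 0.0561), and Esrrg, an orphan nuclear receptor, fell 2.29-fold.

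Of 20 genes of the EGF family and its feedback loop 7 fell and 1 rose (35% and 5%, median -0.57). The ligand Btc, betacellulin, was at 7.39, 7.33, 7.43 and 7.10 in pregnant luminal cells, against 9.38, 8.79 and 9.95 in virgin luminal cells (log2 levels) and fell 4.16-fold. The PEA3 factors, which are switched on by this signalling, fell as well: Etv1 was at 4.99, 5.04, 5.08 and 4.85 on the pregnant arrays and 8.95, 9.28 and 7.86 on the virgin arrays and at least 7.37-fold lower (log2 -2.08 in place of -3.71 with its probes averaged), and Etv4 at 6.45, 6.66, 5.88 and 5.89 on the pregnant arrays and 8.84, 8.34 and 8.94 on the virgin arrays fell 5.61-fold. The feedback genes Dusp6, a phosphatase of ERK, and Spred1 fell 2.80-fold and 2.81-fold, and Lrig3, a membrane protein of the receptor-regulating Lrig family, rose 5.14-fold. In the list of other growth factors, Fgfr2, a receptor needed for ductal growth, was at 9.82, 9.87, 9.34 and 9.32 in pregnant luminal cells, against 14.41, 14.79 and 13.44 in virgin luminal cells and fell 24.7-fold (adjusted p = 3.9e-08), or by log2 -3.21 in place of -4.63 with its probes averaged. Fgfr1 fell 3.30-fold and the ligand Fgf1 3.70-fold. In all 4 of 31 genes of the FGF, IGF, HGF and PDGF list fell and 3 rose (12.9% and 9.68%, median -0.08), near the 10.9% of all genes each way. Igf2, an insulin-like growth factor, was at 13.15, 12.98, 12.04 and 12.62 on the pregnant arrays and 8.76, 6.36 and 8.46 on the virgin arrays and rose 28.6-fold, by log2 4.11 without virgin replicate 2 in place of 4.84. Irs2, which couples insulin-type receptors to their kinases, rose 2.26-fold.

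In the TGF-beta, BMP and activin family 12 of 34 genes fell and 1 rose (35.3% and 2.94%, median -0.57), with 7 falls without virgin replicate 1. The activin subunit gene Inhba was not detected in pregnant luminal cells and lay at least 9.76-fold below the virgin level, and Fst, the activin antagonist follistatin, fell 4.11-fold. The receptor Tgfbr2 was at 11.24, 11.10, 11.46 and 10.64 in pregnant luminal cells, against 12.77, 13.25 and 11.99 in virgin luminal cells (log2 levels) and fell 2.95-fold, Bmp1, a protease that frees growth factors, 2.87-fold, and Id3, a BMP target, 4.93-fold. Tgfb2 was the member that rose, 3.51-fold, with log2 levels of 10.99, 10.99, 11.22 and 10.57 on the pregnant arrays and 8.87, 8.72 and 9.81 on the virgin arrays.

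Of 35 Wnt genes 7 rose and 4 fell (20% and 11.4%, beside 10.9% each way of all genes). The ligands Wnt5a and Wnt7b fell, Wnt5a 29.7-fold with log2 levels of 6.59, 6.64, 7.04 and 6.53 in pregnant luminal cells, against 12.05, 11.90 and 10.82 in virgin luminal cells and Wnt7b at least 21.5-fold with no detected pregnant array. Axin2, a target of canonical Wnt signalling, was at 7.36, 7.30, 8.03 and 7.53 on the pregnant arrays and 5.37, 5.93 and 5.91 on the virgin arrays and rose 3.52-fold, the R-spondin receptor Lgr6 at 8.89, 9.05, 8.68 and 9.17 on the pregnant arrays and 6.95, 6.64 and 6.83 on the virgin arrays rose 4.40-fold, and Dkk3, of the Dickkopf family, 5.12-fold. Rspo1, which boosts Wnt signalling, rose 12.3-fold, by log2 2.97 without virgin replicate 2 and 4.38 without replicate 3 in place of 3.63, and Tcf7l1, a Wnt repressor, rose 5.27-fold. Of 26 Notch genes 3 fell and 1 rose (11.5% and 3.85%), near or below the share of all genes. Hey1, a Notch target, was at 6.88, 6.73, 7.26 and 6.85 in pregnant luminal cells, against 12.50, 13.35 and 10.79 in virgin luminal cells and fell 38.9-fold, by log2 -5.99 without virgin replicate 3 in place of -5.28.

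Of 37 chemokines and cytokines 4 rose and 6 fell (10.8% and 16.2%, beside 10.9% each way of all genes), and of 31 cytokine receptors 2 rose and 8 fell (6.45% and 25.8%). Ccl9, a chemokine, was at 10.99, 10.69, 10.76 and 11.08 in pregnant luminal cells, against 8.01, 7.01 and 7.42 in virgin luminal cells (log2 levels) and rose 10.5-fold, and Il34, a ligand of the macrophage receptor, was detected on every pregnant and no virgin array and was at least 3.803-fold higher. Il33, an alarm cytokine of epithelia, was at 5.42, 5.58, 6.56 and 5.21 on the pregnant arrays and 11.64, 12.33 and 11.88 on the virgin arrays and fell 76.6-fold, and the chemokine Cxcl17 was at least 24.9-fold lower. Most pregnant levels of Il33 lay near or below the lowest detected values, so its fold depends on the background level. Its log2 difference of -6.26 ran from -6.54 to -4.72 over the alternatives tried. The receptors Il13ra1 and Lifr fell 11.6-fold and 3.14-fold. Of 31 interferon response genes 4 rose and 5 fell (12.9% and 16.1%). The guanylate-binding and immunity-related GTPase genes Gbp3, Gbp7 and Igtp rose 3.72-fold, 3.39-fold and 3.15-fold, while Usp18, which removes ISG15, fell 10.6-fold, Samd9l 3.08-fold and the RNA sensor Oas2 2.72-fold. Igtp had log2 levels of 10.97, 10.66, 10.50 and 10.13 on the pregnant arrays and 8.68, 9.08 and 8.96 on the virgin arrays and Samd9l of 8.64, 8.82, 8.90 and 8.6 on the pregnant arrays and 10.30, 10.46 and 10.33 on the virgin arrays. Of 23 antigen presentation genes 2 rose and 5 fell (8.7% and 21.7%). The invariant chain Cd74 and H2-Ab1 rose 3.57-fold and 3.58-fold while H2-DMa, which loads peptides, fell 3.01-fold. Myeloid markers were higher in the same samples, as given above, and their part in these rises was not tested.

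Of 39 complement, acute phase and antimicrobial genes 8 rose and 8 fell (20.5% each way). Cfb, complement factor B, rose 5.03-fold with log2 levels of 9.41, 9.05, 9.52 and 9.54 in pregnant luminal cells, against 7.10, 7.36 and 6.69 in virgin luminal cells, and the peptidoglycan-binding Pglyrp1 5.39-fold. The log2 difference of Pglyrp1, 2.43, was 3.32 without virgin replicate 3, and with its probes averaged it was 1.14 and lost its call (adjusted p = 0.0961). Wfdc12 and Wfdc2 both hold the whey acidic protein domain and went opposite ways. Wfdc12 was at 13.99, 13.89, 12.24 and 13.96 on the pregnant arrays and 9.38, 6.93 and 12.41 on the virgin arrays and rose, with a log2 difference of 3.95 that was 2.64 without virgin replicate 2 and 5.36 without replicate 3, with overlapping arrays. Wfdc2 was at 11.48, 11.15, 10.31 and 11.28 on the pregnant arrays and 13.63, 14.16 and 14.61 on the virgin arrays and fell 8.44-fold (adjusted p = 3.21e-06). Haptoglobin, Hp, fell 19.9-fold, the chitinase-like Chil1 32.0-fold, and the lectin Reg3g was at least 12.3-fold lower.

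Of 31 genes of retinoid, steroid and xenobiotic metabolism 12 fell and 4 rose (38.7% and 12.9%, beside 10.9% each way of all genes, median -0.50). Cyp24a1, which inactivates vitamin D, was at 6.5, 6.94, 6.67 and 6.87 in pregnant luminal cells, against 10.53, 10.40 and 9.44 in virgin luminal cells (log2 levels) and fell 10.4-fold. Aldh3b1 fell 7.61-fold, Cyp2d22 7.38-fold and the flavin monooxygenase Fmo1 6.64-fold. Hsd11b2, which inactivates glucocorticoid, was detected on every pregnant and no virgin array, at 6.76, 7.66, 6.20 and 7.61 on the pregnant arrays and 4.89, 4.82 and 5.30 on the virgin arrays, and was at least 2.69-fold higher. Among 49 stress response genes 9 fell and 4 rose (18.4% and 8.16%, median -0.02). The quinone reductase Nqo1 was at least 3.40-fold lower, Gclc, which starts glutathione synthesis, fell 3.10-fold, the glutathione transferases Gstm2 and Gstt1 5.39-fold and 3.73-fold, and Nupr1, a stress-induced chromatin protein, 5.64-fold. The small heat shock gene Hspb1 was at 10.28, 10.52, 9.52 and 10.78 on the pregnant arrays and 12.23, 12.31 and 12.66 on the virgin arrays and fell 4.36-fold.

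Of 44 junction genes 6 rose and 9 fell (13.6% and 20.5%), and of 47 matrix genes 8 rose and 7 fell (17% and 14.9%), beside 10.9% each way of all genes. Cldn10 and Cldn6, claudins of tight junctions, fell 8.84-fold and 6.39-fold, and the adhesion receptors Cd44 and Alcam 8.06-fold and 12.8-fold, with Alcam at 8.11, 7.75, 7.82 and 7.15 in pregnant luminal cells, against 11.36, 11.60 and 11.21 in virgin luminal cells (log2 levels). The laminin chains were split: Lama5 fell 5.17-fold, at 9.84, 10.04, 9.43 and 10.25 on the pregnant arrays and 12.34, 12.03 and 12.41 on the virgin arrays, while Lama1 rose 5.57-fold, at 9.14, 9.06, 9.23 and 9.34 on the pregnant arrays and 7.31, 6.25 and 6.58 on the virgin arrays, and Lamb3 rose 3.07-fold. Basal markers rose in the same samples, as given above, and their part in these rises was not tested. Itga3, a laminin receptor subunit, fell 2.99-fold and Itgb1, the CD29 of the sort, differed by -0.28 (adjusted p = 0.542). Dcn, the small proteoglycan decorin and a fibroblast marker, fell 5.12-fold, with pregnant replicate 3 the highest of its group (11.09, 11.16, 13.06 and 11.90, against 14.26, 14.72 and 13.50 in virgin luminal cells). Of 42 proteases and inhibitors 11 fell and 1 rose (26.2% and 2.38%, median -0.42). Mmp14, a membrane-bound matrix protease, was at 10.48, 10.59, 10.52 and 10.44 in pregnant luminal cells, against 13.03, 12.92 and 12.62 in virgin luminal cells and fell 5.08-fold (adjusted p = 7.74e-07), the serine protease Tmprss2 fell 8.69-fold, and Cst3, the cathepsin inhibitor cystatin C, 4.29-fold.

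Of 17 clock genes 6 fell and 2 rose (35.3% and 11.8%). Clock fell 2.21-fold, Cry2 2.87-fold and the repressor Bhlhe41 at least 1.74-fold. The time of day at which glands were taken is not given in the sources used here. Of 21 imprinted genes 5 fell and 3 rose (23.8% and 14.3%), among them Peg3, a zinc finger gene, which rose 3.51-fold beside Igf2, and Rasgrf1, a Ras exchange factor, which was at 6.63, 7.09, 7.37 and 6.76 on the pregnant arrays and 11.74, 11.30 and 10.96 on the virgin arrays (log2 levels) and fell 20.7-fold. Phlda2, a growth-restraining gene, fell 7.97-fold.

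Some genes were detected in one state only. There were 45 genes detected on all 4 pregnant and no virgin luminal array, of which 43 rose, and 195 detected on all 3 virgin and no pregnant luminal array, of which 177 fell. Of all 11350 genes tested 10.9% changed each way, but choosing genes by detection nearly fixes their call. Such genes could also pass the detection filter through the state where they were high. Detection on all of 4 arrays asks more than on all of 3, so the counts 45 and 195 cannot be compared. Rgs8, a brake on G-protein signalling, was at 8.72, 8.15, 8.31 and 8.95 in pregnant luminal cells, against 4.96, 4.77 and 4.88 in virgin luminal cells (log2 levels) and at least 7.48-fold higher (adjusted p = 2.68e-08). Upb1, the last enzyme of pyrimidine breakdown, was at 8.18, 8.02, 7.92 and 8.19 on the pregnant arrays and 4.95, 4.78 and 4.86 on the virgin arrays and at least 5.46-fold higher. Card14, a scaffold of NF-kB signalling, was at least 4.03-fold higher, Tnfrsf13c, a receptor of the tumour necrosis factor family, 3.85-fold, and Kirrel3, an adhesion protein, 4.06-fold, as lower bounds. In the other direction Pcdha7, a protocadherin, was at 5.30, 5.48, 5.21 and 4.99 on the pregnant arrays and 10.24, 11.51 and 10.04 on the virgin arrays and at least 27.4-fold lower, Dnaic1, a dynein chain of motile cilia, at least 20.2-fold, and Itih2, a hyaluronan-binding secreted protein, at least 20.98-fold.

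The luminal response was then set against that of the MaSC-enriched cells by testing the difference of the 2 differences. That test passed for 994 genes, 8.76% of those tested. Among the genes changed in luminal cells it passed for 516 of the 1232 that fell (41.9%) and 299 of the 1237 that rose (24.2%), in each case with the luminal difference the larger in its direction. The luminal difference that picked these genes is part of this test, so the shares and directions were partly fixed by the choice. The number of probes past the test rested partly on single arrays, with 2658 without virgin MaSC-enriched replicate 2 in place of 1587. Igf2 rose in luminal cells and had a difference of -1.10 in MaSC-enriched cells, so that the differences lay 5.94 log2 units apart (adjusted p = 0.00017). For Tnfsf11 the MaSC-enriched difference was 0.08, with 3.59 between them (adjusted p = 0.000411). Fgfr2 and Wnt5a fell in luminal cells and differed by 0.19 and 0.07 in MaSC-enriched cells, a gap of -4.82 and -4.96 (adjusted p = 5.73e-06 and 6.85e-05). Alcam and Pcdha7 fell in luminal cells and had positive MaSC-enriched differences of 1.45 and 1.35, which left -5.13 and -6.70. Adgrg2, an adhesion-type receptor, rose 2.23-fold in luminal cells beside a MaSC-enriched difference of -2.47, though its luminal call was lost with median scaling. Csn2, with no luminal change past the test, had a MaSC-enriched difference of 2.79, which left -2.88 (adjusted p = 0.000892). Some of the leading luminal changes did not pass this test, among them Gjb6 (luminal difference 6.18 and MaSC-enriched 3.93, adjusted p = 0.224), Thrsp (adjusted p = 0.216) and Fabp3 (5.32 and 5.07, adjusted p = 0.898). The mitosis list had 18 of 39 members past the threshold in MaSC-enriched cells as well, and the test of the difference passed for 1 of the 39.

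**Figure D4:**
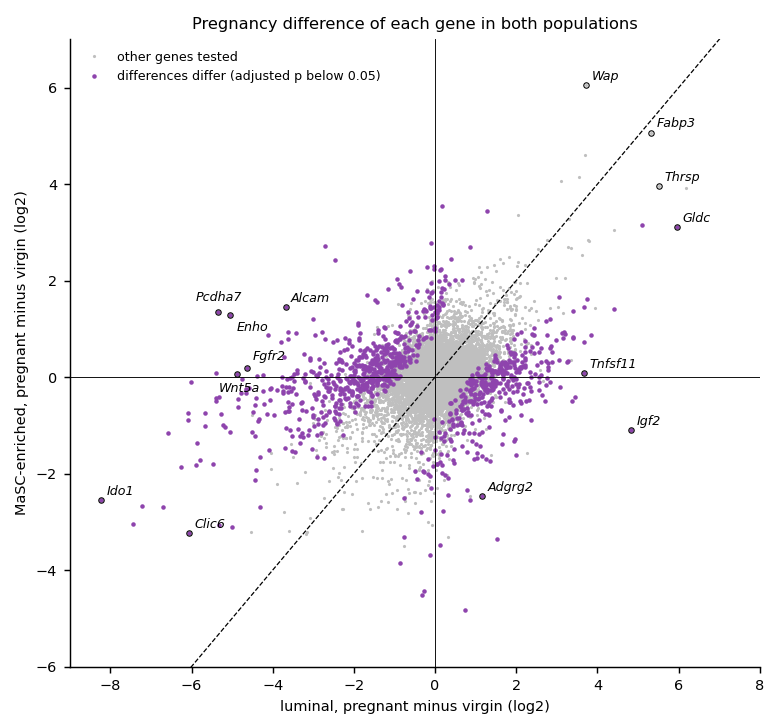
Pregnant minus virgin log2 difference of each of 11350 genes in luminal cells (horizontal) and in MaSC-enriched cells (vertical), with the 994 genes whose 2 differences differ in purple and equal differences on the dashed line. Ido1, Fgfr2, Wnt5a and Pcdha7 lie far to the left at MaSC-enriched values from -2.55 to 1.35, and Igf2 and Tnfsf11 far to the right near or below 0.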

How the data were processed

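Values were read from a table of probe intensities and detection p-values that the submitters deposited for 14 single-colour arrays, which were judged from their values to be neither background-corrected nor normalised. The deposited log2 values came from the submitters' normalisation, and differed from normexp with an offset of 50 and quantile normalisation by a median of 0.00477. BeadStudio and limma are named without versions, per the submitters' processing notes. Here intensities were background-corrected with limma 3.58.1 in R 4.3.3 (normexp fitted from detection p, offset 16), quantile-normalised and log2-transformed. Probes with a detection p below 0.05 on at least 3 of the 14 arrays were tested. Means of 4 groups were fitted with moderated variances, and p-values were adjusted by Benjamini-Hochberg over all probes tested. A gene took its tested probe of highest mean, and where a group had no detected array a fold is a lower bound. Where only some arrays of a group were detected, a fold is as fitted and depends on the background level. Genes were named by a rule: past the threshold with no overlap and a characterised symbol, the 20 largest rises and falls; per list, up to 6 members past the threshold with the largest differences, and fixed defining genes; the 10 genes each way with the largest difference between populations; and up to 10 each way detected in one state only. The gene lists and the comparison were chosen with earlier results of these data known. The number of arrays limits the precision. The fit was tested on simulated data. Prlr, Areg, Mki67 and H19 had no named probe and were not analysed here. Leaving out arrays, other scalings, offsets, filters and blocks were tried as alternatives.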

Additional observations from a re-analysis of the deposited data

Results flagged for a closer look

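For the 226 genes named and 4 marker sums, each set of 4 pregnant luminal values was searched for one array far from the other 3 by Dixon's criterion, which chance meets in about 1 of 20 groups, and 10 of 230 met it. On pregnant replicate 3 these were Cldn6 at a log2 level of 7.203, Socs3 at 12.48 and Wfdc12 at 12.24, and the erythroid marker sum of 16750. On replicate 4 they were Hs3st3b1 at 9.58, Plin2 at 12.39, Reg3g at 4.68, below detection, and Tcf7l1 at 12.41. On replicate 2 they were Sel1l at 9.61 and Wap at 14.86.

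For 128 of the 226 genes the pregnant minus virgin log2 difference in luminal cells differed from that in MaSC-enriched cells (limma, adjusted p below the same threshold). Some of these genes were named for a large difference between the populations, and others for a large luminal difference, which is part of the same test. This share is therefore partly fixed by how they were chosen, and of all genes 8.76% passed. The gaps below are the luminal minus the MaSC-enriched difference, in log2 units. Among milk proteins and alveolar regulators, the gap was -2.100 for Csn1s1, -2.88 for Csn2, -1.36 for Csn3, -2.15 for Elf5 and -2.29 for Socs3. Among hormone-sensing and progenitor genes, the gap was 3.59 for Tnfsf11. It was -2.64 for Cxcl15, -1.89 for Esr1, -4.51 for Hey1, -3.603 for Osmr, -3.05 for Pgr and -2.09 for Prom1 in the same group. Further gaps were -3.100 for S100a6, -1.496 for Spdef and -2.77 for Tbx3. Among genes of keratins, junctions, matrix, proteases and integrins, the gap was 1.44 for Lamb3. It was -5.13 for Alcam, -1.89 for Cldn6, -1.56 for Cst3, -1.499 for Itga3, -2.95 for Krt7 and -1.995 for Mmp14 in the same group. A further gap was -1.92 for Tmprss2. Among genes of the cell cycle and its inhibitors, the gap was 1.48 for Gins1. It was -1.997 for Cdkn2b and -2.61 for Trp53inp1 in the same group. Among genes of lipid and sterol metabolism, the gap was 2.57 for Acacb, 1.503 for Dgat1, 1.91 for Fads2, 1.58 for Fasn, 2.38 for Mvd and 2.200 for Stard4. It was -1.36 for Abcg1, -3.38 for Dgat2 and -1.596 for Lpin2 in the same group. Among genes of central and amino acid metabolism, the gap was 2.85 for Gldc, 2.56 for Gnmt, 2.24 for Gpt2, 1.32 for Pfkl and 1.91 for Prodh. It was -2.31 for Arg1, -3.48 for Glul and -5.68 for Ido1 in the same group.

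Among transporters, the gap was 2.82 for Slc30a2, 3.88 for Slc39a4, 1.97 for Slc6a9 and 2.64 for Tfrc. It was -2.57 for Aqp5, -3.28 for Slc5a5, -3.600 for Slc7a2 and -1.79 for Stim1 in the same group. Among secretory, stress, nucleolar and Myc genes, the gap was 1.71 for Creb3l1 and 2.205 for Sec16b. It was -1.55 for Gclc, -1.903 for Gstm2, -3.71 for Mycl, -3.19 for Nqo1, -1.65 for Nupr1 and -1.16 for Sel1l in the same group. A further gap was -2.75 for Tmed3. Among genes of growth factor, TGF-beta, Wnt, Notch and RANK signalling, the gap was 2.65 for Axin2, 3.24 for Dkk3, 5.94 for Igf2, 1.82 for Lgr6 and 1.51 for Tcf7l1. It was -1.74 for Btc, -1.88 for Dusp6, -4.12 for Etv1, -2.34 for Etv4, -2.24 for Fgf1 and -2.18 for Fgfr1 in the same group. Further gaps were -4.82 for Fgfr2, -4.96 for Wnt5a and -3.66 for Wnt7b. Among nuclear receptors, lineage factors, clock, imprinted and dissociation stress genes, the gap was 2.05 for Peg3 and 2.36 for Vdr. It was -1.61 for Bhlhe41, -1.297 for Clock, -2.68 for Dcn, -1.56 for Esrrg, -2.26 for Ets1 and -3.54 for Foxi1 in the same group. Further gaps were -1.85 for Hspb1, -2.22 for Phlda2 and -3.46 for Rasgrf1. Among immune and antimicrobial genes, the gap was 2.04 for Ccl9, 1.796 for Cfb, 1.35 for Igtp, 2.797 for Il34 and 3.86 for Tnfrsf19. It was -1.903 for Chil1, -4.42 for Cxcl17, -1.62 for H2-DMa, -1.62 for Hp, -4.396 for Il33 and -1.06 for Lifr in the same group. Further gaps were -1.32 for Oas2, -4.41 for Reg3g, -1.83 for Samd9l and -3.49 for Usp18. Among genes of retinoid, steroid and xenobiotic metabolism, the gap was 1.91 for Hsd11b2. It was -2.47 for Aldh3b1, -2.300 for Cyp24a1, -2.54 for Cyp2d22 and -3.02 for Fmo1 in the same group. Among the other named genes, the gap was 3.62 for Adgrg2, 2.11 for Atp12a, 1.99 for Card14, 2.56 for Hs3st3b1, 3.01 for Kcnk6 and 1.81 for Kirrel3. It was 2.25 for Krt14, 2.95 for Rgs16, 2.94 for Rgs8, 2.63 for Tnfrsf13c and 2.31 for Upb1 in the same group. Further gaps were -5.42 for Ang4, -2.83 for Clic6, -4.07 for Crym, -5.198 for Cyp3a57, -5.36 for Dmbt1 and -4.899 for Dnaic1. Further gaps were -4.07 for Gipc2, -4.896 for Itih2, -5.92 for Kif5c, -6.698 for Pcdha7, -5.49 for Piezo2 and -4.49 for Stc2.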

How the results depend on the processing

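With array weights 9271 probes were past the threshold in luminal cells (5009 higher, 4262 lower), 2839 genes rose and 2432 fell, and 2700 probes passed the test between populations, in place of 4087, 2035, 2052, 1237, 1232 and 1587. With median scaling 795 probes were higher and 517 genes rose. Leaving out one luminal array at a time left 1336 to 1913 probes higher in pregnant cells, the fewest without virgin luminal replicate 1. Leaving out any one array left 1093 to 2658 probes past the test between populations, the most without virgin MaSC-enriched replicate 2. Replicate numbers did not pair pregnant with virgin luminal samples (correlations of deviations 0.0468, -0.252 and -0.282), and with number as a replicate block 1316 probes were higher and 807 genes rose. Between populations, arrays of the same number correlated at 0.0478, 0.424 and 0.38 in virgin mice and at -0.168 to 0.092 in pregnant mice. With arrays of the same state and number as a random block, 2127 probes passed the test between populations in place of 1587. Among named genes past the threshold, 4 differences turned sign within a single chip: Acta2 (-0.147), Glycam1 (-0.125) and Sparc (-0.0994) in chip 1 and Tnfrsf11b (-0.114) in chip 4. The cause was not tested. An offset of 50, the deposited log2 values or no background correction shrank differences of genes near background. Array weights also lowered the log2 rises of Gjb6 to 4.47, Fabp3 to 4.09 and Wap to 2.54. Averaging all probes of a gene kept the calls of the genes that follow but moved their folds by over 1.5 times. The log2 differences became -2.15 for Aldh3b1, -2.04 for Cd44, -4.77 for Dnaic1, -2.14 for Fmo1, -2.23 for Foxi1 and 1.795 for Gnmt. They became 1.47 for Kirrel3, -3.08 for Rasgrf1, 2.01 for Slc11a2, 2.59 for Upb1, -2.53 for Usp18 and -4.48 for Wnt7b. Median scaling also ended the calls of Psat1 (adjusted p = 0.0917), Foxm1 (0.103) and Cdkn1c (0.112).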
